A study of Mus musculus with 3 samples.

Results

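Forkhead and SOX genes encode 2 large families of developmental transcription factors, and TBX5 binding near them was examined in the fetal mouse heart. TBX5 is the T-box factor required for heart and forelimb development. Members were the protein-coding mm10 RefSeq genes on chromosomes 1 to 19 named Fox with a letter from A to S and a number, or Sox with a number. These rules gave 59 of 20665 protein-coding genes on those chromosomes, namely 41 forkhead and 18 SOX genes. Foxo4, Foxp3, Foxr2 and Sox3 lie on the X chromosome and were left out. A member was called bound if a TBX5 summit, the position of highest signal in a peak, fell inside the gene body extended by 50 kb on both sides. Binding had been mapped by ChIP-seq, in which chromatin is precipitated with an antibody to TBX5 and its DNA sequenced. The chromatin came from E14.5 hearts of CD-1 mice, an outbred stock. There are 2 samples of TBX5 ChIP and 1 of input, which skips the precipitation, all of the same tissue, stage and stock. No genotype or treatment was compared. Whole hearts contain several cell types, so a peak cannot be assigned to any of them.

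Forkhead factors bind DNA through a winged-helix domain and SOX factors through an HMG box that bends the helix. Several of them shape the heart and its neighbours. FOXC proteins act in the outflow tract and vessels, FOXF1 in the mesoderm next to the heart and lung, and FOXP1 and FOXP4 in myocardium and foregut. SOXC factors (SOX4, SOX11 and SOX12) act in the outflow tract, SOX9 in the valves, SOX10 in neural crest cells and SOXF factors (SOX7, SOX17 and SOX18) in endothelium. Other members pattern the brain, gut, ear or eye.

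The deposited list held 12436 peaks, of which 12284 lay on chromosomes 1 to 19. It came from 1 call on the pooled ChIP samples, so no value per replicate exists and no test between samples could be made. Each peak has a fold enrichment from the authors, which is the number of ChIP fragments at the summit plus 1 divided by the expected background plus 1. The interval in parentheses after a fold is the exact 95% Poisson interval of the fragment count, with the background held fixed. Intervals after shares are exact Clopper-Pearson 95% intervals. Both cover counting error only, not the spread between hearts, and the second treats genes or peaks as independent, which neighbouring genes and peaks are not. As a check of the tissue label, all 5 heart genes looked up (Tnnt2, Myh6, Nppa, Gja5 and Ryr2) had a summit in the body or within 10 kb. The share over all genes was 30.9%. These 5 genes were picked by hand, so the count does not establish the tissue.

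As a group, forkhead and SOX genes were bound about as often as other genes. Of the 59 members 27 had a summit in the window (45.8%, 32.7 to 59.2), against 51.3% of all 20665 genes. The forkhead count was 19 of 41 (46.3%, 30.7 to 62.6) and the SOX count 8 of 18 (44.4%, 21.5 to 69.2). The background share lay inside each of these intervals. With the window cut to 10 kb, 16 members remained bound (27.1%, against 30.9% of all genes), and in the gene body alone 9 (15.3%, against 19.8%). At 100 kb there were 37 bound members (62.7%, against 65.6%). By kind of peak, 19 members had a promoter-class summit in the 50 kb window (32.2%, against 31.3% of all genes). That class means within 2000 bp of the start of any gene in the authors' annotation. Of the 25 promoter-class summits in member windows, 13 had another gene as the nearest. A summit outside that class was counted for 22 members (37.3%, against 34.3%), and one with −log10 q of at least 10 for 19 (32.2%, against 26.9%). Members are short genes, with a median body of 4.79 kb against 17.5 kb over all genes, and their windows touch a median of 1 other protein-coding gene against 3. Among genes with a body under 10 kb, 14 of 39 members were bound (35.9%, 21.2 to 52.8), against 38.7% of all such genes. For bodies of 10 to 100 kb it was 9 of 15 members against 55.3%, and for longer ones 4 of 5 against 72.5%. A member counted as unbound has no summit in its window that passed the peak call, so weaker binding would not be counted.

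**Figure D1:**
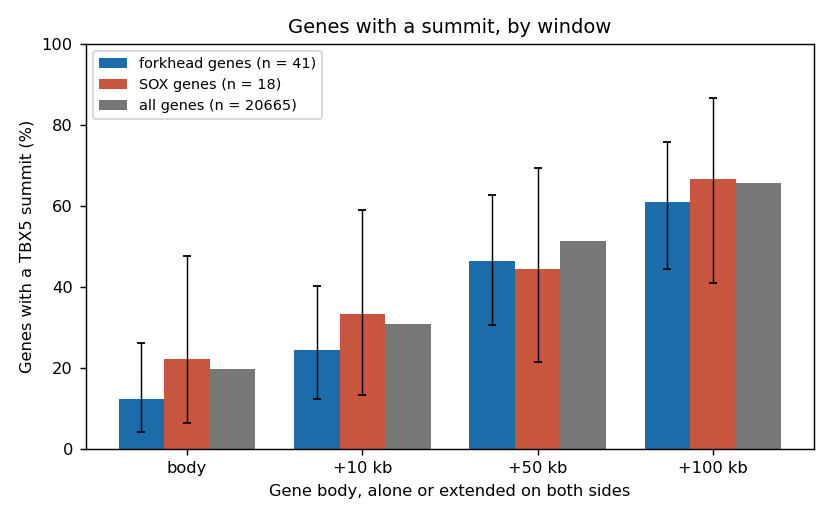
Share of genes with a TBX5 summit in the gene body or in the body extended on both sides, for forkhead genes, SOX genes and all protein-coding genes on chromosomes 1 to 19, which include the members. Error bars on the forkhead and SOX bars are exact 95% binomial intervals, and at 50 kb the bars stand at 46.3%, 44.4% and 51.3%.

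Members were also counted by textbook role. A hand-made heart list held 27 members, most of them chosen for roles in the heart, its vessels or valves, lung mesoderm or neural crest. A list of other organs held 22. The heart list was broad: it included Foxf2, Foxk1, Foxk2, Sox5 and Sox6, for which other roles are given below, and all of these were bound. In the heart list 16 of 27 genes were bound (59.3%, 38.8 to 77.6), an interval that holds the 51.3% of all genes. In the list of other organs it was 4 of 22 (18.2%, 5.19 to 40.3), beside the same 51.3%, and of the 10 members in neither list 7 were bound. Foxd3, which was unbound, stood in the list of other organs although it also acts in neural crest. With Foxd3 counted in the heart list, the counts were 16 of 28 (57.1%, 37.2 to 75.5) and 4 of 21 (19%, 5.45 to 41.9). At 10 kb the counts were 12 of 27 for the heart list and 1 of 22 for other organs, beside the 30.9% of all genes. Among bodies under 10 kb they were 9 of 16 and 2 of 18, beside the 38.7% of all short genes. The difference between the lists was not tested, since both were chosen with earlier results of these data known.

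Distances to the closest summit were spread widely. The bound member with the most distant closest summit was Foxk2, at 44605 bp from its body. The first members beyond the 50 kb limit were Sox9 at 63080 bp, Foxa2 at 66470 bp and Foxc1 at 66835 bp. Heart-list genes without a summit in the window were Foxc1, Foxd1, Foxj1, Foxm1, Foxn4, Foxo1, Sox7, Sox9, Sox13, Sox17 and Sox18. All 3 SOXF genes of endothelium were therefore unbound, with closest summits at 78266 bp for Sox17, 109512 bp for Sox18 and 230408 bp for Sox7. Among the most isolated members were Foxi1 of the inner ear at 1044063 bp and Foxp2, known for its role in vocal circuits, at 785353 bp. The Foxp2 body spans 541 kb and held no summit, whereas that of its paralogue Foxp1, at 597 kb, held 6.

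Of the 32 unbound members 18 stood in the list of other organs. Sox1 and Sox2 of neural progenitors had their closest summits at 70288 and 192892 bp, and Foxd3 at 170524 bp. The endoderm factors Foxa2 and Foxa1 stood far apart, at 66470 and 772955 bp. Foxl2 of the ovary had its closest summit at 610673 bp and Foxn1 of the thymus at 149360 bp. Over all 59 members the median distance was 66835 bp, against 46586 bp over all genes. Bound members had a median body of 9.58 kb and unbound ones 3.99 kb, against 23.5 and 12.5 kb over all genes. A longer body also gives a wider window.

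**Figure D2:**
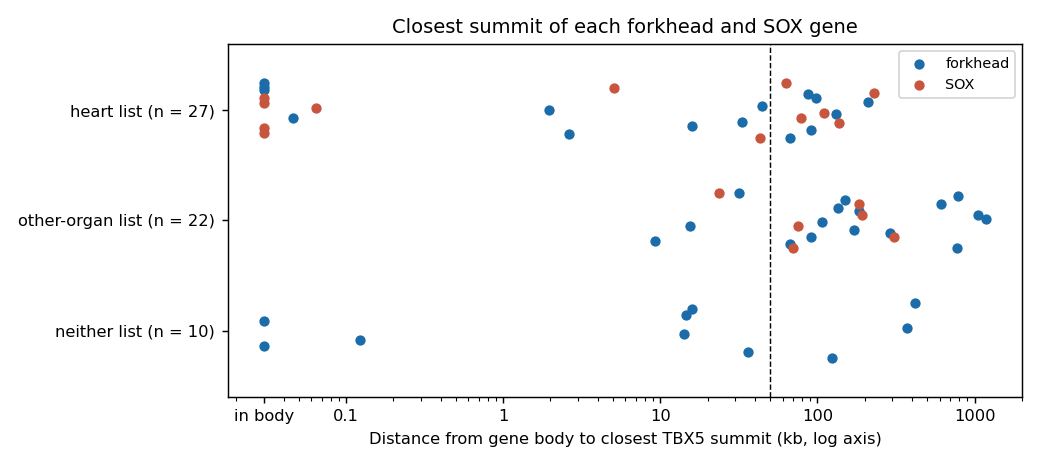
Distance from the body of each of the 59 members to its closest TBX5 summit, on a log axis in kb, by list and family; members with a summit inside the body stand at the left edge, and the dashed line marks 50 kb. Of the heart list 16 of 27 genes lie left of the line, and of the list of other organs 4 of 22.

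The strongest peak near any member lay in the gene cluster of Foxf1, Foxc2 and Foxl1 on chromosome 8. FOXC2 acts in the aortic arch and lymphatic vessels, and FOXL1 in gut mesenchyme. Their windows overlap, and the same 4 summits were counted for each of the 3 genes. The strongest lay at chr8:121103953-121104335 with 28.1-fold enrichment (22.6 to 34.6) from 88 fragments, the rank 225 of the 12436 peaks by fold. It was 15961 bp from the body of Foxf1, 12056 bp from Foxc2 and 23570 bp from Foxl1, inside the body of Mthfsd, an unrelated gene between them. The authors classed it as poised, with H3K4me1, a mark of enhancers, and without H3K27ac, a mark of activity. The peak closest to a member lay 2637 bp upstream of the Foxc2 start, at chr8:121113420-121113684, with 9.17-fold enrichment (7.03 to 11.8). The authors classed it as repressed, and it was the single peak in any member window that overlapped H3K27me3, the Polycomb mark. It also overlapped a TBX3 region, H3K4me1 and H3K9ac, a mark of active starts and enhancers. The other summits were in the promoter class, 105 bp and 1400 bp from the start the authors assigned. They had 4.13-fold (2.60 to 6.28) and 7.32-fold enrichment (4.91 to 10.5), and the nearest gene body to both was that of Mthfsd.

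**Figure D3:**
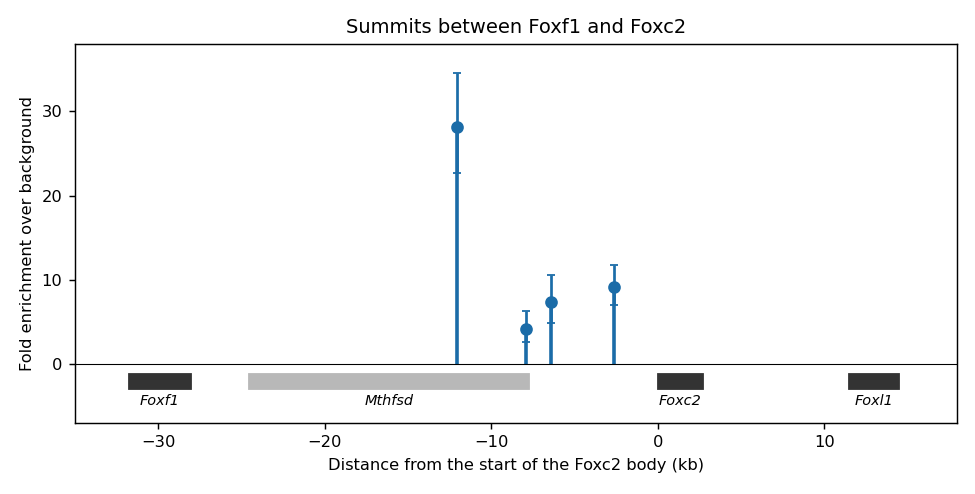
Fold enrichment of the 4 summits in the Foxf1, Foxc2 and Foxl1 cluster against distance in kb from the start of the Foxc2 body; stems run to 0, whiskers are 95% Poisson intervals and boxes are gene bodies, with Mthfsd in grey. The 28.1-fold summit stands inside Mthfsd, and the 9.17-fold summit lies closest to Foxc2.

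The other forkhead clusters carried less. On chromosome 13, Foxq1 and Foxf2 shared a 7.65-fold poised peak (4.70 to 11.9) that lay 31556 bp from Foxq1 and 33284 bp from Foxf2. Foxq1 had a further poised peak of 6.18-fold (4.15 to 8.89) on its other side. Foxf2 acts in palate and gut mesenchyme. Their neighbour Foxc1, a regulator of the outflow tract and eye, had none in its window. The adjacent pair Foxd2 and Foxe3 on chromosome 4 had no summit, with the closest at 123464 and 106295 bp.

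Among forkhead genes outside the clusters, Foxp1 and Foxn3 had the most summits, 6 each, all inside the gene body. At least 5 summits were found for 4 members (6.78%), against 4.29% of all genes, and 3 of these 4 have bodies over 100 kb. FOXP1 is a repressor that acts in myocardial growth and outflow tract septation. Its strongest peak, at chr6:99095569-99095931, had 21.2-fold enrichment (16.3 to 27). That was followed by one of 9.26-fold (6.34 to 13.1), and the remaining 4 stood between 3.67-fold and 5.02-fold. Of the 6 Foxp1 peaks 4 overlapped TBX3 regions and all had H3K27ac. FOXN3 is a repressor linked to cell cycle checkpoints. The Foxn3 body held a 20.4-fold peak (16.0 to 25.8) at chr12:99386284-99386705, a 10.5-fold peak (7.23 to 14.7) and 4 weaker ones between 3.17-fold and 7.84-fold. Foxp4, which acts with Foxp1 and Foxp2 in foregut and heart, had a 7.29-fold peak (4.89 to 10.5) in its body. A 3.92-fold peak (2.34 to 6.22) lay 49613 bp from Foxp4, just inside the limit.

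FOXO factors are nuclear effectors of insulin and growth factor signalling that Akt kinases exclude from the nucleus. Foxo6 had 3 summits, all on 1 side of the gene between 14537 and 19474 bp away, and Foxo6 was their nearest gene. The pair of 19.5-fold (15.5 to 24.1) and 13.1-fold (9.59 to 17.6) lay 1338 bp apart, and both had H3K4me1 and H3K27ac. The third, a poised peak, reached 5.20-fold (3.24 to 7.98). Foxo3 had 1 peak, of 5.44-fold (3.25 to 8.63), in its body. Foxo1, which is required for vessel growth in the embryo, had none in the window, with the closest summit 87337 bp away.

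Peaks of at least 10-fold also stood near Foxe1 and Foxd4, but other genes lay nearer. At Foxe1, a regulator of the thyroid and palate, the 2 strongest of 4 peaks reached 10.6-fold (7.84 to 14.0) and 10.3-fold (6.78 to 15.0). They lay 36077 and 24608 bp from the Foxe1 body, nearest to Gm12447 and Trmo. Of the 4 Foxe1 peaks 3 overlapped TBX3 regions. The 13.5-fold peak (10.9 to 16.6) counted for Foxd4 lay 36280 bp away in the body of Cbwd1. At least 1 peak of 10-fold or more was counted for 11 members (18.6%, 9.69 to 30.9), against 11.8% of all genes. These 11 members accounted for 12 different summits, since Foxf1, Foxc2 and Foxl1 share theirs.

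The remaining bound forkhead genes had weaker peaks, at most 7.30-fold. That value (5.20 to 9.99) was found in the body of Foxj2, and all 3 Foxj2 summits overlapped TBX3 regions. Foxj3 had 4, the highest of 6.95-fold (4.43 to 10.5) at 2570 bp beyond its body. Foxh1 encodes a partner of SMAD proteins in Nodal signalling. Its single peak, of 6.53-fold (4.28 to 9.60), lay 46 bp beyond the Foxh1 body and inside that of Ppp1r16a, and to which of the 2 genes it belongs was not tested. Foxk1 and Foxk2, which act in metabolism and muscle progenitors, had 1 promoter-class peak each, of 3.31-fold (2.10 to 4.98) and 7.20-fold (5.19 to 9.74). The nearest bodies to these peaks were Ap5z1 and Wdr45b. Foxa3 of the liver and gut likewise had 1, of 5.49-fold (3.45 to 8.34), in the body of Irf2bp1. The 3 peaks counted for Foxr1 lay nearest Ccdc84 and Bcl9l and reached 4.39-fold (2.82 to 6.55).

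**Figure D4:**
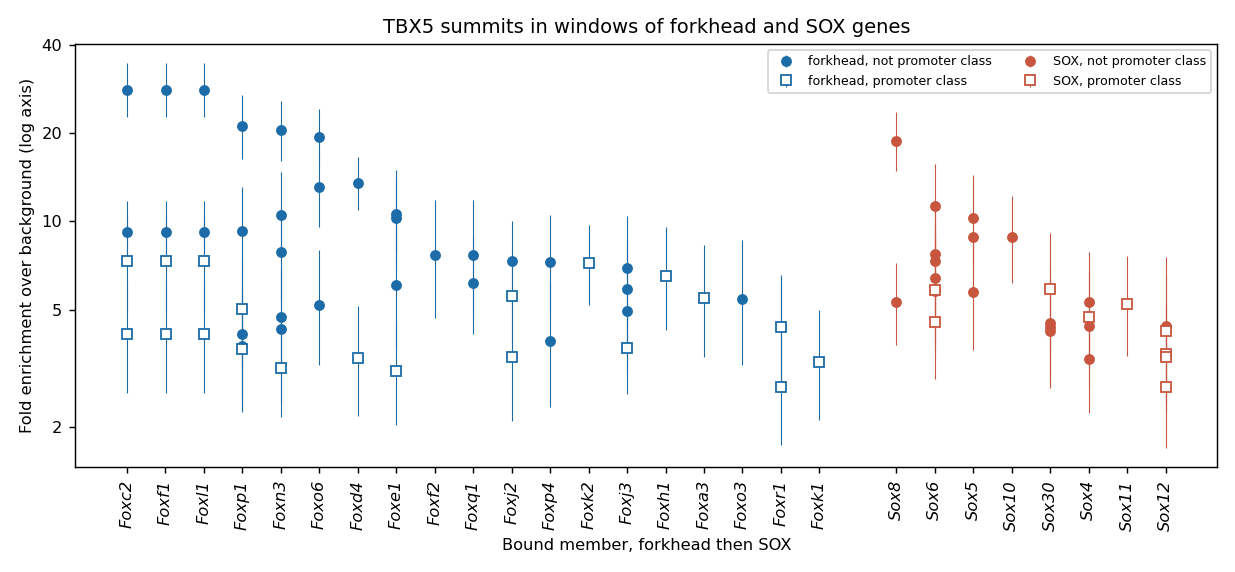
Fold enrichment (log axis) of every summit in the window of the 27 bound members, with 95% Poisson intervals; filled circles are non-promoter and open squares promoter-class peaks, and summits near several members are drawn for each. The Foxc2, Foxf1 and Foxl1 columns repeat the same 4 summits, and no promoter-class peak exceeds 7.32-fold.

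SOX genes are described by subgroup. With at most 3 genes in each, no subgroup can be set apart from the 51.3% of all genes: the intervals were 29.2 to 100% for SOXC, where 3 of 3 were bound, and 0 to 70.8% for SOXF, where 0 of 3 were. The 3 SOXC genes had summits at or next to their starts. Sox4, which is required for outflow tract septation, had 4 summits, of 5.30-fold (3.44 to 7.84), 4.71-fold (3.16 to 6.78), 4.41-fold (2.74 to 6.77) and 3.40-fold (2.23 to 4.99). The first lay 233 bp beyond its 3′ end and the second 64 bp upstream of its start. Sox11 had 1 peak, of 5.25-fold (3.47 to 7.65), with the summit 19 bp downstream of the start. Sox12 had 5 peaks, none above 4.39-fold (2.38 to 7.57), and 3 of them lay within 935 bp of its start.

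Of the SOXD genes, Sox5 and Sox6 held summits and Sox13 did not. Both are regulators of cartilage formation, and SOX6 also acts in muscle fibre type and red cells. Sox6 had 7 summits, more than any other member, with the strongest at chr7:115784342-115784673 (11.3-fold, 7.91 to 15.6) in its body. Its others stood between 4.53-fold and 7.75-fold. Sox5, whose body spans 954 kb, had 3 summits in it, of 10.3-fold (7.07 to 14.4), 8.86-fold (5.64 to 13.3) and 5.75-fold (3.66 to 8.65). The first and the last overlapped none of the 6 histone marks and were classed as other.

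Of the SOXE genes of neural crest, the valves and gonads, Sox8 had the strongest SOX peak. It stood at chr17:25575581-25575912 with 18.8-fold enrichment (14.9 to 23.5), 5063 bp upstream of the Sox8 start and 3425 bp from the body of Lmf1. A 5.30-fold peak (3.79 to 7.22) lay inside Lmf1. Sox10 had 1 peak of 8.82-fold (6.19 to 12.2) at 42961 bp, inside Micall1, and Sox9 had none. The 4 members of SOXB1 and SOXB2, which act in neural progenitors, and Sox15 had no summit. Sox30 of the male germ line had 4, all nearest Thg1l or Adam19 and at most 5.89-fold (3.62 to 9.13).

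Of 71 different summits in member windows, 43 had a member as the nearest gene and 28 another gene. By that stricter reading 14 members were bound (23.7%, 13.6 to 36.6), namely 9 forkhead and 5 SOX genes, against 27% of all genes. The other 13 bound members, among them Foxf1 and Sox8, were the nearest gene of no summit. Of these 13, 6 had a single summit, which lay nearer to another gene. Peaks in the windows were close in strength to the list as a whole, with a median fold of 5.49 against 5.67 over all peaks. The median fold was 4.25 for the 25 promoter-class peaks and 6.68 for the 46 others, against 4.39 and 6.20 in all peaks. Another summit lay within 2000 bp for 17 of the 71 (23.9%), against 13.9% of all summits.

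The peaks were then set beside the authors' chromatin annotation. Acetylation of H3K9, a mark of active starts and enhancers, covered 49 of the 71 peaks (69.0%, 56.9 to 79.5), against 46.1% of all peaks. H3K4me3, which marks starts, covered 35 (49.3%, 37.2 to 61.4), against 31.7%, and H3K27ac 60 (84.5%, 74.0 to 92.0), against 73.6%. Promoter-class peaks made up 35.2% (24.2 to 47.5), against 24.5%. They were 12 of the 43 peaks with a member as the nearest gene (27.9%, 15.3 to 43.7). Of the 28 peaks nearest another gene they were 13 (46.4%, 27.5 to 66.1). Outside the promoter class H3K9ac covered 24 of 46 (52.2%, 36.9 to 67.1), against 30.9% of all such peaks. H3K4me1 stood at 71.8% (59.9 to 81.9), against 72.8%. These peaks include several from single genes, such as 7 at Sox6, and no test of the differences was made.

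Overlap with TBX3, a T-box repressor of the conduction system, differed in count between the families. TBX3 regions covered 21 of 44 peaks in forkhead windows (47.7%, 32.5 to 63.3) and 6 of 27 in SOX windows (22.2%, 8.62 to 42.3), against 27.2% of all peaks. Outside the promoter class the counts were 14 of 28 and 3 of 18, against 21.3% of all such peaks. The forkhead count draws on groups of neighbouring peaks, including 4 at Foxp1, 3 at Foxe1, 3 at Foxj2 and 3 at Foxn3, and the difference between the families was not tested. Counted by gene, 12 of 41 forkhead and 4 of 18 SOX genes had a TBX3-overlapping peak (29.3% and 22.2%), against 26.6% of all genes. H3K27me3 covered 1 peak of the 71 (1.41%, 0.0357 to 7.60), against 1.62% of all peaks. As that peak lies in 3 windows, it gave 3 of 59 members (5.08%), against 1.99% of all genes.

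**Figure D5:**
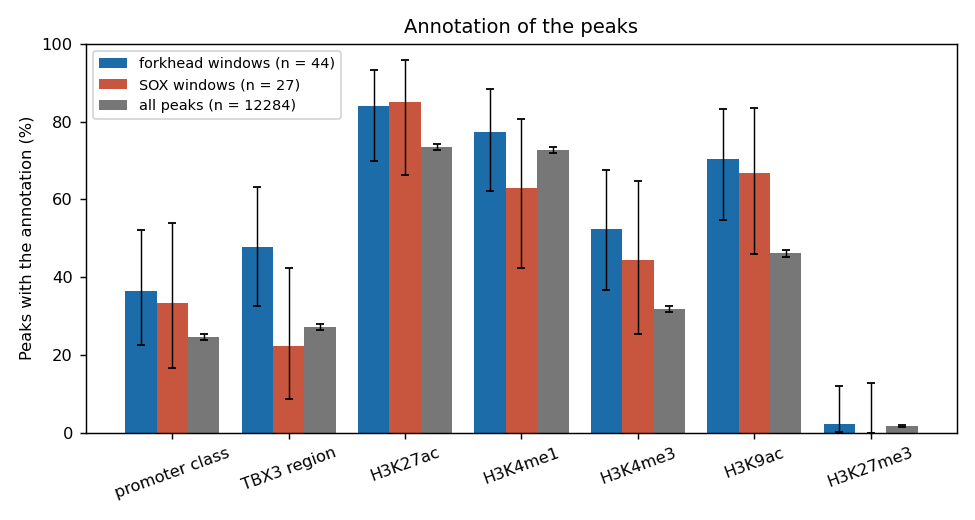
Share of peaks in forkhead windows, in SOX windows and in the whole list on chromosomes 1 to 19 that carry each annotation of the authors, with exact 95% binomial intervals. TBX3 overlap stands at 47.7%, 22.2% and 27.2%, and H3K27me3 is below 3% in all groups.

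Promoters under a TBX5 peak could be read for the 39 members in the RefSeq promoter table (GRCm38.p6). In 6 of them (15.4%, 5.86 to 30.5) a peak covered part of the 250 bases before a start. The share over 16457 genes in the table was 8.65%, inside that interval. These 6 were Foxj2, Foxj3, Foxp1, Sox4, Sox6 and Sox11. A gene counted if any of its starts did, and Sox6 has 6 starts in the table and Foxp1 has 3. These 250 bases are shown on the gene strand, 5′ to 3′, for 5 of the 6, because here a peak lay over or shortly before a member's own start. Foxj3 held no match either. Capitals mark the T-box core GGTGT, searched on both strands, so that it also appears as ACACC.

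Sox6, chr7:116031048-116031297, minus strand: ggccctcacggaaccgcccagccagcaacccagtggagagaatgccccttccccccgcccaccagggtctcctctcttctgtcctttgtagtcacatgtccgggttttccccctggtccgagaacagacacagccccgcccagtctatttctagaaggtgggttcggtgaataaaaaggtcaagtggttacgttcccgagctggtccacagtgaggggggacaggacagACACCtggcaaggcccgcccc
Sox11, chr12:27342719-27342968, minus strand: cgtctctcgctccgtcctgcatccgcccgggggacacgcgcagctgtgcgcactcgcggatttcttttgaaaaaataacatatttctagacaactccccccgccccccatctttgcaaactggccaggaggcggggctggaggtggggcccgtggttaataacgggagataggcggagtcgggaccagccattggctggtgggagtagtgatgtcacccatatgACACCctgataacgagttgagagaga
Foxj2, chr6:122819934-122820183, plus strand: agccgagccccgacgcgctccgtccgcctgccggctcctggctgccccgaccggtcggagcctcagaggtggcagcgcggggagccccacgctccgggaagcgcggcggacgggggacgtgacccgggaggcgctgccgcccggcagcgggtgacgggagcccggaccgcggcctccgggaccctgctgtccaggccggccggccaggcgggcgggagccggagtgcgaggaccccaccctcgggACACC
Sox4, chr13:28953700-28953949, minus strand: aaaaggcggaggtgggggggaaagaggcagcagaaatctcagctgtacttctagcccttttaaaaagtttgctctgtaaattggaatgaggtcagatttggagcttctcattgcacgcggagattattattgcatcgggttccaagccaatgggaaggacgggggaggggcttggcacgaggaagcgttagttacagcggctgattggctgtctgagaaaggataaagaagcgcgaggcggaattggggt
Foxp1, chr6:99520994-99521243, minus strand: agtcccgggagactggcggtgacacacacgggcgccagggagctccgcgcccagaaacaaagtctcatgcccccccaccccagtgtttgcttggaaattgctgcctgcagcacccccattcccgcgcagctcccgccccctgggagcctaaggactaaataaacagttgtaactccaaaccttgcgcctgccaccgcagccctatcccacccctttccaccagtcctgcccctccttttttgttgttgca

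The Sox6 match began 21 bases before the start, lay under the peak and was the only one of these to extend to AGGTGT. The Sox11 match began 26 bases before the start, also under the peak. The Foxj2 match, 5 bases before the start, lay outside its peak, which covered 81 of the 250 bases. The peaks covered 250 bases of the window at Sox4, 248 at Sox11, 222 at Sox6, 221 at Foxj3 and 25 at Foxp1. Those at Foxj2, Foxj3 and Foxp1 did not reach the start itself. The core GGTGT occurred before 35.0% of 20085 starts in the table. It occurred before 40.8% of the 1571 starts with a peak over part of the 250 bases, so a match is common. The longer AGGTGT occurred before 11.2% and 14.4%, and GGTGTGA before 3.12% and 3.69%. The forkhead core TGTTTAC and the SOX core AACAAT were in none of the 6 member windows under a peak, and occurred before 2.64% and 7.94% of all starts. These letters are a description of the windows and not evidence of a site.

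At these starts enrichment stayed below the 5.67-fold median of all peaks. The median of all promoter-class peaks was 4.39-fold, and the 6 peaks over or shortly before these starts lay on both sides of it. The peak over the start had 4.53-fold enrichment (2.91 to 6.75) at Sox6, where a further 5.86-fold promoter-class peak (3.73 to 8.81) lay upstream. Enrichment was 5.25-fold at Sox11, 3.46-fold (2.10 to 5.42) at Foxj2, 4.71-fold at Sox4, 5.02-fold (3.23 to 7.48) at Foxp1 and 3.69-fold (2.59 to 5.12) at Foxj3. All 6 had H3K27ac and H3K4me3 and were classed as active promoters. With Sox12, whose peaks flank the 250 bases without touching them, 7 of 39 members had a summit within 2000 bp of a start (17.9%, 7.54 to 33.5). The share over genes in the table was 13.0%, inside that interval.

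Other genes of the same pathways and families were set beside the members. Of 30 kinases, cofactors and upstream factors of forkhead proteins, such as Akt kinases, SMAD proteins and FOXP corepressors, 27 were bound (90.0%, 73.5 to 97.9). The background of 51.3% lay below that interval, but none of these genes has a body under 10 kb. Among those of 10 to 100 kb it was 18 of 19, against 55.3% of all genes of that length, and among longer ones 9 of 11, against 72.5%. Of 20 genes of other HMG-box proteins, such as Tcf7l2 and Lef1 of Wnt signalling, 15 were bound (75.0%, 50.9 to 91.3). Of 12 T-box genes 10 were bound (83.3%, 51.6 to 97.9), and of 39 Hox genes 3 (7.69%, 1.62 to 20.9). Among bodies under 10 kb, 3 of 33 Hox, 4 of 4 T-box and 4 of 4 other HMG-box genes were bound, against 38.7% of all such genes. For bodies of 10 to 100 kb the counts were 0 of 6, 6 of 7 and 5 of 8. Among longer ones they were 0 of 1 T-box and 6 of 8 other HMG-box genes. The members' share of 45.8% lay between those of the T-box and Hox genes. These lists were also chosen with earlier results known, and differences between them were not tested.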

How the data were processed

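TBX5 ChIP-seq of E14.5 hearts comprised 2 ChIP samples and 1 input sample, sequenced as 50-base single reads of 200 to 650 bp fragments according to the labels' protocols. The submitters' processing notes name mm10 as the build and list Bowtie2, SAMtools, ChIPseeker and MACS2. No version, setting or read depth was given in the sources used here. Pooling is known from the file names: 1 peak call was deposited for both ChIP samples.

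The authors' fold is the ratio defined with the results. The deposited −log10 p and −log10 q values and the score, 10 times −log10 q, come from the same call. The authors' table adds a start distance, a promoter class, regions of 6 histone marks and TBX3 regions, without naming their tissue, stage or overlap rule. A peak counted as marked if any region file of that mark covered it.

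From these, summits were counted in gene bodies of the RefSeq table (GRCm38.p6, the assembly of mm10) extended by 50 kb. A summit near several genes counted for each. Fragment counts were solved from fold and −log10 p, within 0.0005 for all 12436 peaks, and on simulated data 100% of 467 were recovered. No test was made: with 1 pooled list there is no spread between samples. Named genes were those with a peak of at least 10-fold, at least 5 summits, a promoter-class summit within 2000 bp of a body end, heart-list genes and clustered genes. The remaining bound members, the unbound genes of other organs and the promoters shown, which are those under a peak rather than those of the members with the highest fold, were chosen after their values were seen. Sequences are from RefSeq (GRCm38.p6). 20 members are not in that promoter table. Of the lists, Foxp3 and Hmgb3 are not on chromosomes 1 to 19. The values of 1 member are not reported here. Members and lists were chosen with earlier results of these data known. Other windows, peak thresholds, peak classes and assignment to the nearest gene were tried. Software was matplotlib 3.10.9, scipy 1.17.1, numpy 2.4.6 and pandas 2.3.3 under Python 3.11.15.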

Additional observations from a re-analysis of the deposited data

How the results depend on the processing

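Of 62 values recomputed under other settings, 36 stayed within 1.5 times the main count or within the main interval. Whether the members' share bound stood below or above that of all genes varied by setting. In each setting listed next, the share of all genes lay inside the members' 95% interval. Their share bound was below that of all genes with 10 kb, 50 kb, 100 kb, the body alone and the nearest gene, and above it with −log10 q of at least 10, at least 10-fold, promoter-class and non-promoter peaks. Their median fold of 5.49 lay below the 5.67 of all peaks, but was 5.81 in bodies, 5.84 at 100 kb and 5.75 by the nearest gene. The share of all genes bound also changed with the setting. It was 51.3% in the main setting, 30.9% with 10 kb, 19.8% in the body alone and 65.6% with 100 kb. With −log10 q of at least 10 it was 26.9%, with at least 10-fold 11.8%, with promoter-class peaks 31.3% and by the nearest gene 27%. A lower count under a stricter setting therefore does not by itself set the genes below apart. The number of bound forkhead genes, 19 in the main setting, was 10 with a 10 kb extension, 5 in the body alone, 8 with peaks of at least 10-fold and 9 by the nearest gene. The number of bound SOX genes, 8 in the main setting, was 4 in the body alone, 4 with −log10 q of at least 10, 3 with peaks of at least 10-fold, 5 with promoter-class peaks and 5 by the nearest gene. For both families together, 27 in the main setting, the counts were 16, 9, 11 and 14 with 10 kb, the body alone, at least 10-fold and the nearest gene. The settings were run on both role lists after seeing the data. The heart list, 16 in the main setting, had 7 in the body alone, 6 with at least 10-fold, 10 with promoter-class peaks and 9 by the nearest gene. The list of other organs, 4 in the main setting, had 1 with 10 kb, 0 in the body alone, 8 with 100 kb, 2 with −log10 q of at least 10, 1 with at least 10-fold and 1 by the nearest gene. Moving Foxd3 between the lists, also chosen after seeing the data, left 16 and 4. With −log10 q of at least 10 the median fold moved to 8.86 and the promoter-class share to 13.8%, as the threshold itself removes weak peaks. In gene bodies alone the H3K27me3 share was 0%, since the single marked peak of the 50 kb windows lies outside a body. That share was 2.38% at 10 kb and 4.63% of 108 summits at 100 kb, against 1.62% of all peaks. No paired analysis was possible because the peaks were called on the pooled samples, and for the same reason no replicate could be left out. The median summit in member windows rests on 23 fragments, against 22 over all peaks, and the effect of depth was not tested.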
